A study of Mus musculus with 40 samples.

Results

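The 10 genes described here are macrophage genes of the mouse uterus: Csf1r, Adgre1, Cx3cr1, Mrc1, Mgl2, Cd163, Retnla, Lyz2, C1qa and C1qb. They were taken by name from a table of 54532 genes, and all 10 were at 1 FPKM or more (fragments per kilobase of gene, scaled to library size) in at least 5 of the 40 libraries, the minimum for testing, as were 16226 genes in all. RNA of the prepubertal uterus, from mice treated at postnatal day 25, had been sequenced in bulk in 8 groups of 5 libraries. The control mice received PBS or saline. The other groups received doxorubicin at 3 mg/kg, an anthracycline that breaks DNA, anti-Müllerian hormone (AMH) at 0.75 mg/kg, a hormone of the TGF-beta family, or both agents at these doses. The study text gives 2 weekly doses of doxorubicin, and each treatment was collected at 4 h and at 24 h after treatment. No genotype, strain or transgene is given in the labels. The titles call the 5 libraries of a group biological replicates, and whether each is a single mouse or a pool is not stated, so p-values measure only the spread between these libraries.

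Macrophages in the uterus are partly resident cells seeded from early life and partly cells that arise from blood monocytes. They depend on signalling through the receptor Csf1r, clear dead cells, and can take an alternatively activated state, driven by interleukin 4 and interleukin 13 through STAT6, in which lectins, scavenger receptors and secreted factors such as Retnla are made. Since the uterus was sequenced in bulk, fewer cells of a type and less RNA per cell cannot be told apart in any value given here.

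The depth, recovered from the FPKM steps, was 16251563 to 27391049 gene reads in a library, and behind the members' values stood 0 to 3360 reads per gene and library. Some libraries stood apart in markers of other tissue. In 9 libraries (control 4 and 5, doxorubicin 3 and 4 and doxorubicin with AMH 5 at 4 h, and doxorubicin 3, 4 and 5 and doxorubicin with AMH 4 at 24 h) the mean log2 level of 12 oviduct and ciliated cell genes was more than 1 above the median library. In 4 libraries (control 1, 2 and 4 and AMH 3 at 24 h) the same held for 14 oestrogen-responsive genes of the uterus. The libraries of high oviduct signal hold 3 of the 5 doxorubicin libraries at 24 h, and those of high oestrogen signal 3 of the 5 controls at 24 h, so results of the 24 h comparisons are given with and without them. Leaving out libraries by these scores was chosen after seeing the data.

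The members spanned a wide range of levels per length. Averaged over 40 libraries, the order was Lyz2 (lysozyme of phagocytes) at 80.3 FPKM, C1qa at 41.5 and C1qb at 38.0 (chains of the complement component C1q), Csf1r at 9.18, Mrc1 at 6.13, Retnla at 5.23, Adgre1 at 5.21, Mgl2 at 4.36, Cx3cr1 at 3.36 and Cd163 at 1.32. C1qa and C1qb overlapped in range (20.6 to 77.7 and 19.0 to 71.0), and so did all genes from Csf1r to Cx3cr1. Lyz2 (42.3 to 156) overlapped in range with the C1q chains alone. Cd163 was lowest, at 0.309 to 2.75 FPKM, and Retnla was the only member with a library at 0. Each of the 10 was detected in all 8 groups, and 0 of the 24 other genes of a core macrophage list had a median under 0.1 FPKM over all libraries.

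**Figure D1:**
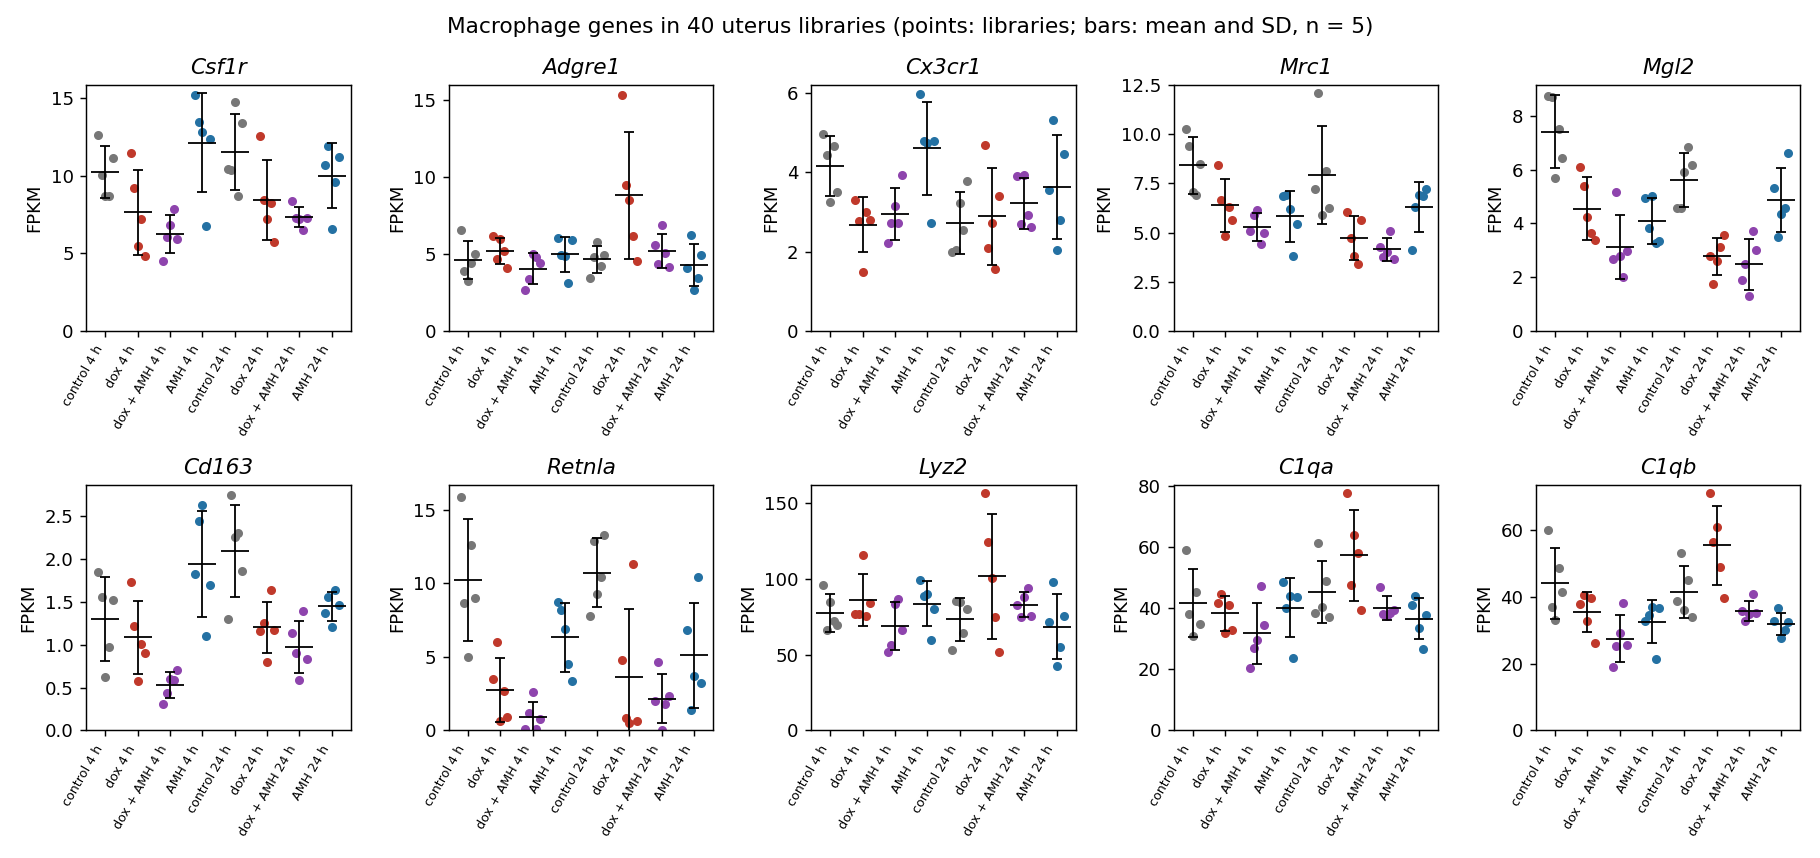
Level of each member gene in FPKM (vertical axis, linear, from 0) in the 8 groups, with 1 point per library and the mean and SD of 5 libraries as bars (bars that would pass below 0 end there). Adgre1 is highest in the doxorubicin group at 24 h (4.51 to 15.3), whereas Retnla, Mgl2 and Mrc1 are highest in the controls.

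Doxorubicin against control at 24 h asked what the uterus showed a day after treatment. In limma's moderated test on log2(FPKM + 1), adjusted over all 16226 genes by the Benjamini-Hochberg method with a threshold of 0.05, 5 of the 10 members passed: Adgre1 rose, and Mrc1, Mgl2, Cd163 and Retnla fell. By comparison 18.4% of all tested genes passed, 8.44% higher and 9.95% lower. That share moved with single libraries: it was 5.76%, 6.33% and 6.96% without control 1, 2 or 4, 9.07%, 6.29% and 10.4% without doxorubicin 2, 3 or 4, and 34.4% and 28.8% without control 3 or doxorubicin 5. The median change over the 10 members was -0.20, against -0.01 over all genes. When the 10 libraries of these groups were fitted alone, 0 members passed, as did 25 genes in all instead of 2984. The members thus went in opposite directions, with Adgre1, C1qb, Lyz2 and C1qa above control in the mean and the lectin, scavenger receptor and Retnla genes below.

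Adgre1 (chr17:57358691-57483527, build mm10) encodes F4/80, the adhesion receptor that is the classical marker of mouse macrophages. It stood at 3.44, 4.80, 5.78, 4.23 and 4.91 FPKM in controls 1 to 5 and at 15.3, 9.50, 8.51, 6.14 and 4.51 in doxorubicin libraries 1 to 5. Doxorubicin libraries 1, 2, 3 and 4 lay above every control, and library 5 lay within the control range. The increase passed the test (log2 change 0.72, SE 0.21, adjusted p = 0.020 by limma). It depended on single libraries: the adjusted p was 0.076 without doxorubicin 1, 0.054 without doxorubicin 2, 0.053 without doxorubicin 3, 0.075 without control 1 and 0.054 without control 4 (limma). Without the high-oviduct libraries, which leaves 2 doxorubicin libraries, the log2 change was 1.23 (limma adjusted p = 0.0069). Without the high-oestrogen libraries, which leaves 2 controls, it was 0.53 and did not pass (limma adjusted p = 0.47).

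Csf1r, the receptor for the growth factors Csf1 and Il34, was below control in the mean. Its level was 10.4, 10.4, 14.7, 8.70 and 13.4 FPKM in the controls and 12.6, 8.40, 7.21, 8.24 and 5.72 with doxorubicin. Doxorubicin 1 lay within the control range and the other 4 below it, and the change was short of the threshold (limma log2 change -0.42, SE 0.20, adjusted p = 0.11). Without doxorubicin 1 it passed as a decrease (log2 change -0.57, limma adjusted p = 0.049). Cx3cr1, the receptor for the membrane-bound chemokine Cx3cl1, was at 1.98 to 3.78 FPKM in controls and 1.55 to 4.68 with doxorubicin (limma log2 change 0.03, SE 0.20, adjusted p = 0.91, 95% interval -0.37 to 0.44). The annotated span of Cx3cr1 (chr9:119901616-120069879) holds 9 other genes, 5 of them protein-coding, and Csf1r overlaps Hmgxb3 on the opposite strand. Whether counting used strand is not given in the sources used here, so these values may include reads of those genes.

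The 4 members that fell are surface lectins and scavenger receptors and 1 secreted protein, all known for alternatively activated or resident macrophages. Mrc1 is the mannose receptor CD206, Mgl2 the galactose-binding lectin CD301b, Cd163 the receptor that takes up haemoglobin bound to haptoglobin, and Retnla the secreted resistin-like protein also called FIZZ1 or RELM alpha. Because these 4 fell together, the sequence before their start sites is shown, from RefSeq on GRCm38.p6, plus strand, 5′ to 3′. Each run starts 250 bases before the RefSeq start and ends there, or earlier at the base before the gene's start in the deposited table where that lies upstream. The run of Retnla is chr16:48842359-48842550, that of Mgl2 chr11:70130107-70130328, that of Mrc1 chr2:14229164-14229391 and that of Cd163 chr6:124304401-124304650. Capitals mark matches, on either strand, to GAGGAA (a core of sites for PU.1, the myeloid transcription factor), TTC and GAA with any 4 bases between (the spacing STAT6 prefers) and TTGCNNAA, with N for any base (a C/EBP core).
Retnla: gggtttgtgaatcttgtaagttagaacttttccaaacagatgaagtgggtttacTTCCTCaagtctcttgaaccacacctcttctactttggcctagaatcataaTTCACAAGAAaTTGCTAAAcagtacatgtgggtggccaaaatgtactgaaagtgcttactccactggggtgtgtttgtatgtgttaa
Mgl2: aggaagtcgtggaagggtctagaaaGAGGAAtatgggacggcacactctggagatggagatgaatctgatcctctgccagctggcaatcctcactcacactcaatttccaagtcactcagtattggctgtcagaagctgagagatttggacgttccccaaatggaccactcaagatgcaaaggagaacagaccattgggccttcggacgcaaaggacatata
Mrc1: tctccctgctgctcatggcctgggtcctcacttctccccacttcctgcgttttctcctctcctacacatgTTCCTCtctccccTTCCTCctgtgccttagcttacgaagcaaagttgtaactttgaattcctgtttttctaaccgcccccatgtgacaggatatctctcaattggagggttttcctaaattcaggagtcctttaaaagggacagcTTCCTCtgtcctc
Cd163: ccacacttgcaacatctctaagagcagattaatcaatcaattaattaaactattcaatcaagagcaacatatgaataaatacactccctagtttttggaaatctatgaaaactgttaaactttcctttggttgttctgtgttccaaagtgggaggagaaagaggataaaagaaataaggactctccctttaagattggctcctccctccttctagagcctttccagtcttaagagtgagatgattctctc

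Retnla had 1 match to each of these 3 motifs, the STAT6 and C/EBP matches 1 base apart at -145 to -136 and -134 to -127 before the RefSeq start. It also had a TATAAA match at -30 to -25, outside the printed run. Mgl2 had 1 PU.1 match, Mrc1 had 3 and Cd163 had none of the 4 motifs. Of 32851 RefSeq promoters cut to the same 250 bases, 23.3% held the PU.1 core, 5.85% the STAT6 spacing, 9.56% the C/EBP core and 12.4% TATAAA. A match is a description of letters, not a site of binding. Promoters of 7 of the 10 members were in the sequence table, and of the 3 other members matched there, C1qb had 1 PU.1 match and Lyz2 and Cx3cr1 had none of the 4 motifs.

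Mgl2 (chr11:70130329-70137550) showed the cleanest separation. The controls at 24 h held 4.56, 4.56, 5.93, 6.82 and 6.17 FPKM and the doxorubicin libraries 2.78, 1.75, 2.60, 3.13 and 3.56. Every doxorubicin library lay below every control, and Mgl2 was the only member without overlap in this comparison (3.4% of all tested genes did not overlap, 1.48% as lower). The decrease passed (limma log2 change -0.82, SE 0.19, adjusted p = 0.0049), and it passed with each library left out in turn in the fit of all groups. It also passed without the high-oviduct libraries (limma adjusted p = 0.017), but not without the high-oestrogen ones (log2 change -0.92, adjusted p = 0.094). Its neighbour and relative Clec10a, whose reads could in part be shared with Mgl2, did not pass (limma log2 change -0.14, SE 0.19, adjusted p = 0.60).

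Retnla (chr16:48842551-48844461) had the widest spread of the members. The controls held 7.79, 12.9, 9.25, 10.4 and 13.3 FPKM and the doxorubicin libraries 4.81, 0.847, 0.482, 11.3 and 0.668. Doxorubicin 2, 3 and 5 were under 1 FPKM, doxorubicin 1 was intermediate, and doxorubicin 4 lay within the control range. The fitted change was a decrease of 1.86 on the log2(FPKM + 1) scale (SE 0.49, limma adjusted p = 0.013), and it was short of the threshold without doxorubicin 3 (adjusted p = 0.054), without the high-oviduct libraries (log2 change -1.82, adjusted p = 0.056) and without the high-oestrogen libraries (log2 change -1.93, adjusted p = 0.24). The gene is short and its reads were few, at 0 to 181 per library with a median of 47. Retnla is also made by fat tissue, and the summed level of 9 adipocyte genes was 76.1 to 1421 FPKM in the doxorubicin libraries and 58.4 to 156 in the controls. With the adipocyte score as a covariate, added after seeing the data, the decrease was as large (log2 change -2.01, limma adjusted p = 0.0081).

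Mrc1 (chr2:14229392-14332057) held 7.24, 12.1, 5.91, 8.12 and 6.25 FPKM in the controls and 6.03, 4.70, 3.82, 3.40 and 5.62 with doxorubicin. The ranges touched only at doxorubicin 1, which was just above control 3, and control 2 was by far the highest library. The decrease passed (limma log2 change -0.63, SE 0.16, adjusted p = 0.011) but not without control 2 (adjusted p = 0.060), the high-oviduct libraries (log2 change -0.46, adjusted p = 0.15) or the high-oestrogen libraries (-0.33, adjusted p = 0.54). Mir511 lies within the gene.

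Cd163 (chr6:124304656-124330527) held 1.30, 2.75, 2.26, 2.30 and 1.86 FPKM in the controls and 1.16, 1.25, 0.802, 1.64 and 1.17 with doxorubicin. Control 1 lay inside the doxorubicin range and the other 4 controls above it. The decrease was small (log2 change -0.48, SE 0.16, adjusted p = 0.033, limma), and its adjusted p was 0.11 without control 2, 0.083 without control 4, 0.054, 0.058 and 0.10 without doxorubicin 1, 2 and 3, and 0.12 and 0.36 without the high-oviduct and the high-oestrogen libraries. With all libraries kept it was 0.066 with no filter on low values, 0.067 under the total-read scaling and 0.057 when scaled over genes at 5 FPKM or more, so the call rests on these choices too.

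Of the other secreted products, none passed at 24 h with doxorubicin alone. Lyz2 (chr10:117277331-117282321) held 52.7, 85.4, 84.5, 64.5 and 79.8 FPKM in the controls and 156, 124, 101, 75.1 and 51.5 with doxorubicin. Doxorubicin 1, 2 and 3 lay above every control and doxorubicin 5 below every control (limma log2 change 0.39, SE 0.22, adjusted p = 0.19). Without doxorubicin 5 the log2 change was 0.60 (limma adjusted p = 0.027), and without the high-oviduct libraries, doxorubicin 5 among them, it was 0.94 (adjusted p = 0.022). Reads of Lyz2 could in part be shared with the near copy Lyz1, which was at 0.267 to 5.30 FPKM over all libraries.

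C1qa (chr4:136895917-136898803) and C1qb (chr4:136880129-136886187) lie side by side with C1qc and encode the 3 chains of C1q, which binds dying cells and immune complexes. C1qb held 38.7, 53.2, 36.0, 45.0 and 34.0 FPKM in the controls and 71.0, 56.3, 60.9, 49.0 and 39.7 with doxorubicin, with doxorubicin 1, 2 and 3 above every control (limma log2 change 0.41, SE 0.17, adjusted p = 0.080). It passed without doxorubicin 5 (adjusted p = 0.025) and when values were scaled by total reads in genes (log2 change 0.54, adjusted p = 0.025) or over genes at 5 FPKM or more (adjusted p = 0.042). C1qa was 45.3 ± 10.1 FPKM (SD, n = 5) in controls and 57.4 ± 14.9 with doxorubicin, and C1qc was 19.1 ± 3.89 and 22.5 ± 5.14 (limma adjusted p = 0.23 and 0.36).

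**Figure D2:**
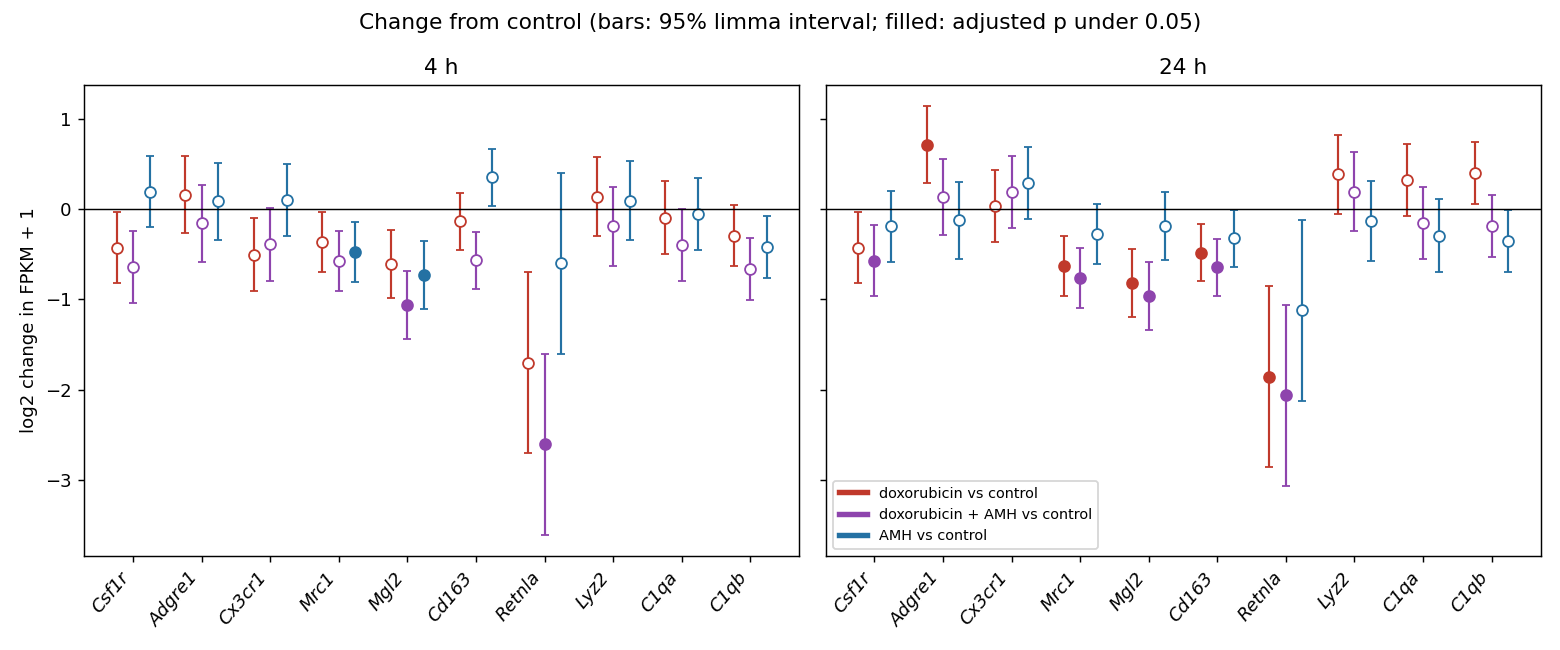
Log2 change in FPKM + 1 against the control of the same time (vertical axis) for each member at 4 h and at 24 h, with the 95% interval from limma as bars and filled points where the adjusted p was under 0.05. At 24 h Adgre1 is above 0 with doxorubicin (0.72), and Mrc1, Mgl2, Cd163 and Retnla are below 0 with doxorubicin and with doxorubicin and AMH.

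Ratios to Adgre1 within libraries are given as a description. Since Adgre1 rose, a lower ratio does not show a decrease of the other gene. Mgl2 over Adgre1 was 0.949 to 1.61 in the 24 h controls and 0.181 to 0.789 with doxorubicin, with no overlap. Cd163 over Adgre1 was 0.379 to 0.572 and 0.0753 to 0.267, and Csf1r over Adgre1 was 2.06 to 3.02 and 0.820 to 1.34, again without overlap. Mrc1 over Adgre1 (1.02 to 2.52 and 0.393 to 1.24) overlapped through doxorubicin 5, and Retnla over Adgre1 (1.60 to 2.71 and 0.0567 to 1.84) through doxorubicin 4. Lyz2, though above control in the mean, was 14.6 to 17.8 times Adgre1 in the controls and 10.2 to 13.1 times with doxorubicin, also without overlap. C1qb over Adgre1 (6.23 to 11.2 and 4.62 to 8.81) overlapped. The share of all genes whose ratio to Adgre1 would not overlap was not computed. The ratio of C1qa to C1qb stayed between 0.842 and 1.49 in all 40 libraries.

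**Figure D3:**
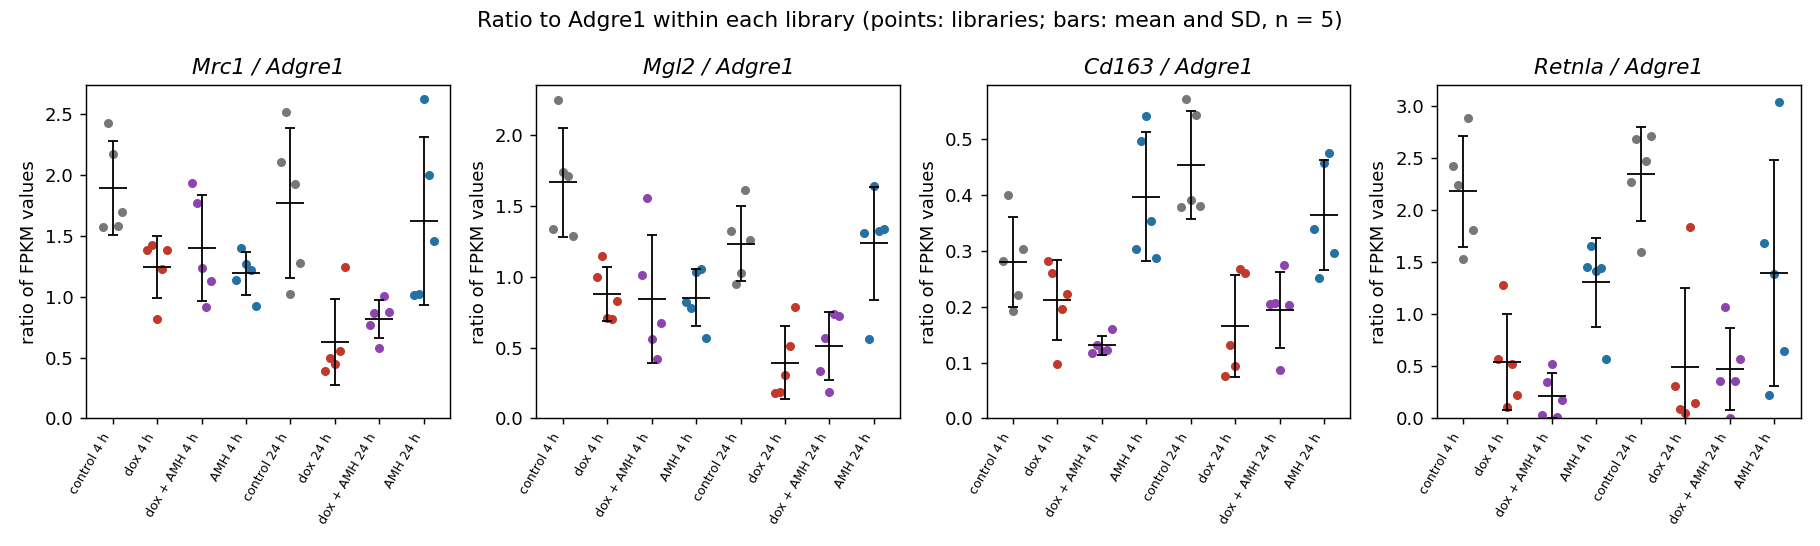
Ratio of the FPKM value of Mrc1, Mgl2, Cd163 and Retnla to that of Adgre1 in the same library (vertical axis, linear, from 0), with 1 point per library and the mean and SD of 5 libraries as bars (ending at 0 where they would pass below). At 24 h the doxorubicin libraries lie below the controls for Mgl2 and Cd163, and all but 1 do so for Mrc1 and Retnla.

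Other macrophage genes were read from lists that share no member with the 10 genes. Of 23 tested core macrophage genes, 9 rose with doxorubicin at 24 h and 0 fell, with a median log2 change of 0.45 against -0.01 over all genes. The 4 of smallest p, as mean ± SD with n = 5 in treated against control libraries, were Ms4a7 (1.75 ± 0.573 FPKM against 0.766 ± 0.331, limma adjusted p = 0.0073), Hpgds, a prostaglandin D synthase (7.10 ± 2.46 FPKM against 1.84 ± 1.06, adjusted p = 0.011), Mpeg1, a pore-forming protein (12.8 ± 6.55 FPKM against 5.16 ± 2.14, adjusted p = 0.013), and Cybb, the oxidase subunit of the phagocyte burst (3.04 ± 2.00 FPKM against 1.24 ± 0.433, adjusted p = 0.017). Hpgds is also made by mast cells, of whose list 1 of 6 tested genes, Kit, rose. In all, 22 of the 23 genes were higher in the mean, the exception being Itgam (log2 change -0.37, limma adjusted p = 0.30).

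Of 7 tested monocyte genes 4 rose and 0 fell: Fcgr4 (5.04 ± 3.33 FPKM against 0.674 ± 0.444), Plac8 (111 ± 43.0 FPKM against 49.9 ± 25.9), Ly6c2 (6.85 ± 6.56 FPKM against 0.856 ± 0.504) and Ace (8.73 ± 1.56 FPKM against 6.37 ± 1.00), with limma adjusted p between 0.0030 and 0.031. Ly6c2, a marker of classical monocytes, was spread from 0.201 to 15.0 FPKM among the doxorubicin libraries. Ace is also expressed by endothelium, of whose list 2 of 10 tested genes rose, and whose part in the Ace value was not tested. The mean log2 level of the core macrophage list was 3.63, 3.49, 3.39, 3.04 and 2.54 in doxorubicin libraries 1 to 5 and 2.49 to 2.93 in the controls, so that doxorubicin 5 lay within the control range.

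Of the resident and alternatively activated macrophage genes, 0 of 16 tested rose and 5 fell, with a median of -0.13. In the mean 6 of the 16 were above control. F13a1 (coagulation factor XIII subunit A) was at 2.19 ± 0.483 FPKM against 5.35 ± 2.01 without overlap (limma log2 change -0.95, SE 0.21, adjusted p = 0.0046). Cd209f was at 0.871 ± 0.483 FPKM against 2.38 ± 0.976, Ear2 at 1.73 ± 0.979 FPKM against 3.48 ± 0.389, and Lyve1, the hyaluronan receptor, at 17.8 ± 2.93 FPKM against 24.9 ± 3.51. The other was the interleukin 4 receptor chain Il4ra (limma log2 change -0.59, SE 0.19, adjusted p = 0.035), which the naming rule did not take and which was named after its values were seen. Lyve1 also marks lymphatic vessels, of whose list it was the only 1 of 6 tested genes to pass, with Prox1 at a log2 change of -0.15. Selenop (0.86, adjusted p = 0.056) and Folr2 (0.06, adjusted p = 0.87) of the same list did not pass by limma.

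These list counts moved with single libraries, as did the share of all genes that passed. That share was 28.8% without doxorubicin 5 and 5.76% without control 1. The 9 core genes became 17 without doxorubicin 5, 6 without doxorubicin 4, 5 without control 2, 4 without control 4 or doxorubicin 3, and 3 without control 1, doxorubicin 1 or doxorubicin 2. The 4 monocyte genes became 2 without control 1, doxorubicin 2 or doxorubicin 3, 3 without control 2 or doxorubicin 1, and 5 without control 3. The 5 resident genes that fell became 3 without control 4, doxorubicin 2 or doxorubicin 4, 2 without control 1 or 2, and 1 without doxorubicin 3. They became 7 without control 3 or 5 and 6 without doxorubicin 1 or 5. Without the high-oviduct libraries 13 core and 4 monocyte genes rose, while 3 resident genes rose and 0 fell. Without the high-oestrogen libraries, and when the 10 libraries compared were fitted alone, 0 genes of these 3 lists passed. In these settings 73 and 25 genes passed in all, instead of 2984. Scaling by total reads in genes gave 13 core genes up and, among resident genes, 1 up and 3 down. That scaling turned the split of all called genes from 45.9% to 77.9% higher, and scaling over genes at 5 FPKM or more gave 64.3%.

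**Figure D4:**
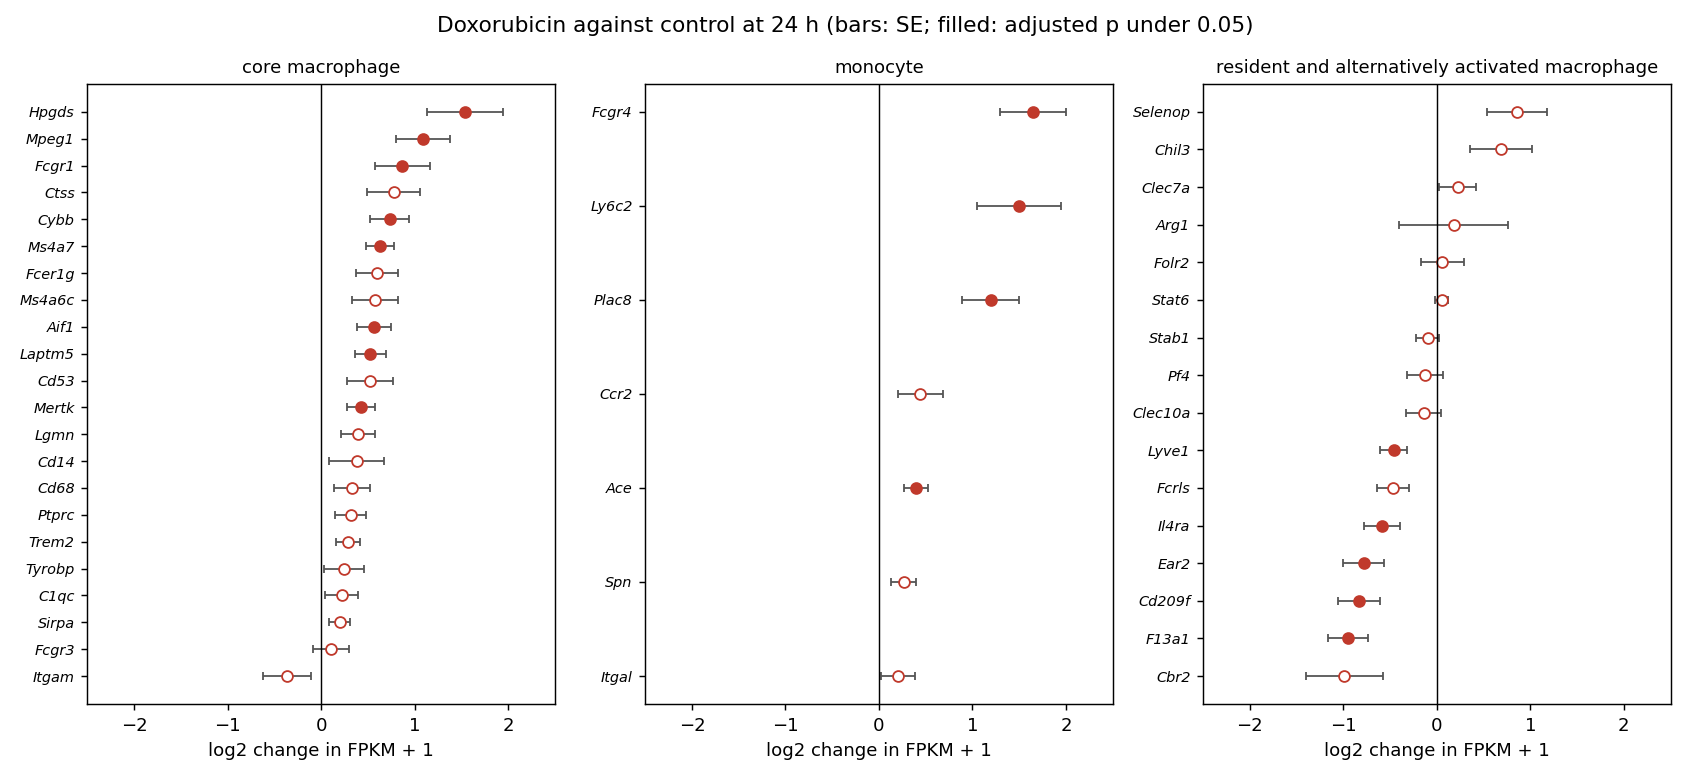
Log2 change in FPKM + 1 for doxorubicin against control at 24 h (horizontal axis) for 22 of the 23 tested core macrophage genes and for every tested gene of the monocyte and the resident and alternatively activated macrophage lists, with the SE as bars and filled points where the limma adjusted p was under 0.05. Filled points lie right of 0 for 8 of the core genes shown and 4 monocyte genes and left of 0 for 5 resident genes.

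Of the ligands of the receptor members, none passed. Csf1 was 9.95 ± 1.83 FPKM against 10.7 ± 1.68 (limma adjusted p = 0.68), Il34 2.31 ± 0.983 FPKM against 1.32 ± 0.244 (adjusted p = 0.055) and Cx3cl1 10.1 ± 2.42 FPKM against 10.1 ± 4.22 (adjusted p = 0.91) with doxorubicin at 24 h, and 0 of 10 tested chemokines of the attractant list passed. Among 12 tested growth factors and myeloid transcription factors 4 rose, among them Nr1h3 (the liver X receptor alpha, 1.01), Cebpa (0.83) and Csf2rb (the shared receptor chain for GM-CSF, 0.58, all log2 changes). Among 15 tested complement genes 5 rose: C4b (1.38), C3ar1 (0.78), C1ra (0.74), Serping1 (0.58) and C2 (0.65), the last named after its values were seen. Of genes for the uptake of dead cells, Mertk, the bridging protein Pros1 and the lipid exporter Abca1 rose among 14 tested. The share of all genes that passed as higher was 8.44%, and the number of all genes that passed moved with the libraries and settings below. The 5 complement genes became 7 without doxorubicin 5 and 6 without control 3. They became 2 without control 1, 2 or 4 or doxorubicin 2 or 3, 1 without the high-oestrogen libraries and 0 with the 10 libraries compared fitted alone. The 4 growth and transcription factor genes became 2 without control 4 or doxorubicin 3 or with no filter, 1 without control 1 or doxorubicin 2, and 0 without control 2, without the high-oestrogen libraries or with the 10 libraries fitted alone. The 3 uptake genes became 1 without control 1, 2 or 4 or doxorubicin 2 or 3, and 0 in the last 2 of these settings.

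Doxorubicin with AMH against control at 24 h gave a decrease in 5 of the 10 members and an increase in none, where 34.3% of all tested genes passed and 18.6% passed as lower. Those that fell were Csf1r, Mrc1, Mgl2, Cd163 and Retnla. The groups did not overlap for Csf1r, Mrc1, Mgl2 and Retnla, against 8.73% of all tested genes (4.53% as lower). The median change of the 10 members was -0.38. The share of all genes that passed was 21.9% and 17.9% without control 1 or 2. It was 44% and 40.2% without control 3 or 5, and 39.9% without treated library 4.

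Mgl2 held 1.87, 2.47, 1.29, 3.72 and 3.01 FPKM in libraries 1 to 5 with both agents (limma log2 change -0.96, SE 0.19, adjusted p = 0.00060). Mrc1 held 4.28, 3.75, 4.00, 5.09 and 3.63, all below the lowest control at 5.91 (limma log2 change -0.76, SE 0.16, adjusted p = 0.0014). Retnla held 2.00, 4.66, 0, 1.83 and 2.35 (limma log2 change -2.06, SE 0.49, adjusted p = 0.0030), where the 0 reads of library 3 allow up to 0.246 FPKM, the level of 3 reads. For these genes the libraries with both agents were all below the controls.

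Csf1r held 8.35, 7.29, 7.20, 6.50 and 7.28 FPKM (limma log2 change -0.57, SE 0.20, adjusted p = 0.024), and Cd163 held 1.14, 0.898, 0.593, 1.39 and 0.838 (limma log2 change -0.65, SE 0.16, adjusted p = 0.0033), with 1 library inside the control range. Adgre1, which rose with doxorubicin alone, did not pass with both agents: it held 5.57, 4.35, 6.88, 5.06 and 4.14 FPKM, overlapping the controls (limma log2 change 0.14, SE 0.21, adjusted p = 0.63). Csf1r passed neither without control 3 (adjusted p = 0.055) nor without the high-oviduct libraries (0.051) nor under the total-read scaling (0.084), scaling over genes at 5 FPKM or more (0.066) or no filter (0.051). Without the high-oestrogen libraries only Mgl2 of the 5 still passed, with adjusted p of 0.17 for Retnla, 0.34 for Mrc1, 0.15 for Cd163 and 0.099 for Csf1r (limma).

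The lists showed 8 of 16 resident and alternatively activated genes lower and 1, Selenop, higher. The 4 of smallest p that fell were Cbr2 (109 ± 18.8 FPKM against 605 ± 533), Fcrls (4.39 ± 1.07 FPKM against 8.41 ± 2.14), Lyve1 (15.3 ± 1.11 FPKM against 24.9 ± 3.51) and Cd209f (0.626 ± 0.300 FPKM against 2.38 ± 0.976). Clec10a, the relative of Mgl2, fell too (1.98 ± 0.492 FPKM against 3.40 ± 0.398, limma adjusted p = 0.020). The control mean of Cbr2, with its wide SD, was far above the level of Lyz2, the highest member (80.3 FPKM over 40 libraries). The part of other cells in the Cbr2 value was not tested. Of 23 core macrophage genes 2 rose (Hpgds and Mertk) and 1 fell (Itgam), and 2 of 7 monocyte genes rose (Fcgr4 and Plac8), where 15.7% of all genes passed as higher. The core count is thus below the share of all genes, and the monocyte count rests on 7 genes. Resident genes that fell numbered 5 without library 1 of the doxorubicin and AMH group, 9 without control 3 and 0 without the high-oestrogen libraries. Core genes that rose numbered 4 without control 3, 1 without control 1, control 2 or library 1 of the treated group and 0 without the high-oestrogen libraries. Monocyte genes that rose numbered 1 without control 1, 2 or 4 or treated library 1, 2, 3 or 5 and 0 without the high-oestrogen libraries. Scaling by total reads in genes, which moved the median of all genes to 0.11 here, gave 5 core genes higher and 5 resident genes lower, and the split of all called genes went from 45.9% to 69.7% higher (60.8% when scaled over genes at 5 FPKM or more).

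Doxorubicin with AMH against doxorubicin alone compares mice that differ in AMH. By limma 0 members passed at 24 h (0.333% of all genes did) and 0 at 4 h (0.00616%), where 3 members had an unadjusted p under 0.05. At 24 h 3 members had an unadjusted p under 0.05: Adgre1 (limma log2 change -0.58, SE 0.21, adjusted p = 0.25), C1qb (log2 change -0.59, SE 0.17, adjusted p = 0.11) and C1qa (log2 change -0.47, SE 0.20, adjusted p = 0.32), all lower with AMH added. Without doxorubicin 5, whose core macrophage level was lowest in its group, Adgre1 (0.050, just under the threshold) and C1qb (0.033) passed by adjusted p. For Retnla the 95% interval of the log2 difference was -1.21 to 0.80, and for Mgl2 -0.52 to 0.24, at 24 h. The test of whether the effect of AMH differed with doxorubicin present gave 0 members and 0 genes at either time (limma; 0 members at 24 h and 1, Cd163, at 4 h had an unadjusted p under 0.05, as did 675 and 2356 of all genes).

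At 4 h the 4 members that fell at 24 h were below control in the mean with doxorubicin. For doxorubicin alone 0 members passed, where 0.493% of all genes did, 0 were without overlap, against 3.14% of all genes, and 5 members had an unadjusted p under 0.05 by limma. Retnla held 15.9, 8.67, 5.00, 12.6 and 9.03 FPKM in the 4 h controls and 3.49, 6.02, 0.663, 2.67 and 0.918 with doxorubicin, 4 of 5 of which were below every control (limma log2 change -1.70, SE 0.49, adjusted p = 0.12). Mgl2 held 8.75, 8.70, 5.67, 7.50 and 6.44 and 6.11, 5.38, 4.23, 3.63 and 3.37 (limma log2 change -0.61, SE 0.19, adjusted p = 0.14). Adgre1 was 4.61 ± 1.25 and 5.20 ± 0.862 (SD, n = 5). The difference between the doxorubicin effects at 24 h and 4 h passed for 0 members and 0.0123% of genes, so the effects are not shown to differ between the times, with a difference of 0.56 (95% interval -0.05 to 1.16) for Adgre1 and -0.16 (-1.58 to 1.26) for Retnla.

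With both agents at 4 h, Mgl2 and Retnla fell, where 0.394% of all genes passed and 0.179% passed as lower. Retnla held 0.091, 1.15, 2.58, 0.082 and 0.764 FPKM, with libraries 1 and 4 at 1 read each and all below the lowest control (limma log2 change -2.60, SE 0.49, adjusted p = 0.011). Mgl2 held 2.65, 5.18, 2.79, 2.01 and 2.96, also all below the lowest control of 5.67 (limma log2 change -1.06, SE 0.19, adjusted p = 0.0058). The groups did not overlap for these and for Csf1r (4.49 to 7.83 against 8.67 to 12.6 FPKM) and Mrc1 (4.41 to 6.16 against 6.91 to 10.3), which is 4 of 10 members against 7.43% of all genes (3.57% as lower). Csf1r (adjusted p = 0.11) and Mrc1 (0.097) were short of the threshold by limma, and passed when only the groups compared were fitted (0.033 and 0.030). Ear2 (1.06 ± 0.449 FPKM against 3.60 ± 1.33) and Cd209f (0.593 ± 0.356 FPKM against 2.27 ± 1.28) were the 2 of 16 resident genes that fell, and 0 of 23 core genes passed. The resident count was 0 without control 1 or the high-oviduct libraries, 1 without control 2 or 4 or treated library 1, 2 or 5, and 7 without the high-oestrogen libraries. The genes called in all were 20 or fewer of 16226 without control 1, 2 or 4 or treated library 5 and 35 without treated library 2.

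The 2 calls at 4 h did not pass without the high-oviduct libraries, which leaves 3 controls (Retnla -2.51, adjusted p = 0.12; Mgl2 -1.10, adjusted p = 0.11, limma). Without control 3 at 4 h, C1qb (0.043) and Cd163 (0.043) passed as well, and C1qb did so without library 4 of the treated group (0.031). The summed level of the 9 adipocyte genes was 5.07 to 449.8 FPKM (median 11.7) with both agents and 76.2 to 404 (median 256) in the 4 h controls, with 0 of 8 tested genes called. With the adipocyte score as a covariate Retnla and Mgl2 still passed. Dendritic cells can express Mgl2 and Csf1r, and the mean log2 level of 11 dendritic cell genes was 2.07 to 2.80 with both agents and 2.85 to 3.14 in the 4 h controls, without overlap. Their summed level was 117 to 328 FPKM and 325 to 492, highest for Cd74 and 3 H2 genes, which macrophages also make. None of the list had a median under 0.1 FPKM over all libraries, and of 8 tested genes 0 were called and 0 were higher in the mean (median log2 change -0.71). The core macrophage score overlapped, at 2.24 to 2.98 and 2.45 to 2.88. The part of dendritic cells in the Mgl2 and Csf1r values was not tested.

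With AMH alone at 4 h Mgl2 and Mrc1 fell, where 20% of all tested genes passed and 10.9% passed as lower, so 2 of 10 members is near the share of all genes. Mgl2 held 4.93, 3.82, 5.03, 3.28 and 3.34 FPKM with AMH, below every control (limma log2 change -0.73, SE 0.19, adjusted p = 0.0090). Mrc1 held 6.84, 6.89, 6.19, 3.78 and 5.45 with AMH and 10.3, 9.40, 7.08, 6.91 and 8.48 in the controls, just without overlap (limma log2 change -0.48, SE 0.16, adjusted p = 0.037). Non-overlapping groups were found for these 2 members, against 24.3% of all genes (13% as lower). The share of all genes that passed was 12.4%, 10.5% and 12.6% without control 1, 2 or 4. The Mgl2 decrease passed with each library left out. The Mrc1 decrease did not pass without control 1, 2 or 5 (adjusted p 0.11, 0.093 and 0.054) or AMH 3, 4 or 5 (0.051, 0.13 and 0.072), nor with no filter (0.076). Without control 3 C1qb passed (0.035), and without AMH 4, the lowest library of C1qa, C1qb, Csf1r and Adgre1 in that group, Cd163 passed as higher (0.043).

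Retnla with AMH at 4 h held 8.71, 8.15, 6.91, 4.48 and 3.33 FPKM (limma log2 change -0.60, SE 0.49, adjusted p = 0.40), and Csf1r and Adgre1 were 12.1 ± 3.18 and 4.96 ± 1.16 FPKM (SD, n = 5), with adjusted p of 0.49 and 0.79. Of 23 core genes 3 rose, among them Hpgds (10.5 ± 3.33 FPKM against 3.17 ± 1.29) and Mertk (6.59 ± 0.515 FPKM against 4.30 ± 0.741), which is near the 9.13% of all genes that passed as higher. Among 14 genes for the uptake of dead cells Mertk, Pros1, Abca1 and Mfge8 rose, while Gas6, the other bridging ligand of Mertk beside Pros1, fell (182 ± 19.0 FPKM against 299 ± 33.6, limma adjusted p = 0.0050). Of 10 attractants the monocyte chemokines Ccl7 (0.408 ± 0.308 FPKM against 3.70 ± 2.22) and Ccl12 (1.76 ± 0.404 FPKM against 5.56 ± 2.78) fell. The attractant count became 0 without control 1, 2 or 4 or any 1 AMH library and with no filter. In the resident list Selenop rose and Cbr2 and Cd209f fell, where 10.9% of all genes passed as lower and 9.13% as higher. The 2 of 16 that fell are near that share, and the attractant count rests on 10 genes. Resident genes that fell numbered 1 without control 1, 2 or 4 or AMH 1, 3, 4 or 5 and 4 without control 3. The part of other cells in the Cbr2 value was not tested here either.

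At 24 h after AMH alone 0 members passed, with 0.462% of all genes called, and 3 had an unadjusted p under 0.05, Retnla among them (limma log2 change -1.12, SE 0.49, adjusted p = 0.22). Its libraries held 6.82, 1.40, 3.67, 10.4 and 3.20 FPKM, of which library 4 lay within the control range and the other 4 below it. Scaling by total reads in genes turned the split of called genes from 41.3% to 69.4% higher. Mgl2 was 4.86 ± 1.18 FPKM (SD, n = 5) against 5.61 ± 1.01 in controls (95% interval of the log2 change -0.56 to 0.20). Between the control groups 24 h and 4 h after treatment 0 members passed, where 7.32% of all genes did, and the smallest adjusted p was that of Cd163 (limma log2 change 0.44, SE 0.16, adjusted p = 0.083). The split of called genes there went from 58.5% to 33.2% higher under the total-read scaling and to 41.4% when scaled over genes at 5 FPKM or more.

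How the members varied together within groups was read from log2(FPKM + 1) values centred on their group means, over the same 40 libraries, as a description. C1qa and C1qb had a Pearson r of 0.88, Adgre1 and Lyz2 0.86, and Adgre1 and Csf1r 0.74. Among the members that fell with doxorubicin, r was 0.56 for Mrc1 and Cd163, 0.50 for Cd163 and Retnla, 0.47 for Mgl2 and Retnla, 0.40 for Mgl2 and Cd163, 0.26 for Mrc1 and Mgl2 and 0.17 for Mrc1 and Retnla. With Adgre1 it was -0.11 for Mgl2, 0.02 for Retnla, 0.24 for Mrc1 and 0.30 for Cd163. Values of the same libraries share depth and scaling, which such correlations include.

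By the same measure the protein-coding genes most like Csf1r, members aside, were H2-Aa (r = 0.81), Cd74 (0.77), H2-Ab1 (0.76), Wdfy4 (0.76) and H2-DMa (0.75), of which 4 serve antigen presentation by MHC class II. Those most like Retnla were Gm13030 (0.64), Pih1d1 (0.63), Klhdc3 (0.58), Fam213b (0.58) and Tsc22d4 (0.54). Retnla had an r of 0.35 with the adipocyte score, the highest of the 10 members. With the mean log2 level of the oestrogen-responsive genes, r was 0.44 for Mrc1, 0.40 for C1qa and 0.37 for C1qb. It was lower for the other members, down to -0.26 for Cx3cr1. Other cells that can make member genes were looked for by their markers. Of 8 eosinophil genes 7 had a median under 0.1 FPKM over all libraries, Siglecf, Epx and Prg2 among them, the exception being Alox15 (median 14.8), which epithelium also makes, and of 12 neutrophil genes 7 did, Mpo, Elane and Camp among them. The other 5 neutrophil genes were Mmp9 (median 4.12 FPKM), Csf3r (0.515), Ly6g (0.439, up to 8.75), S100a9 (0.230, up to 6.02) and S100a8 (0.153, up to 2.62). Dendritic cell genes were present in every group, and at 24 h their mean log2 level was 2.48 to 3.25 with doxorubicin, 2.57 to 2.74 with both agents and 2.37 to 3.11 in the controls.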

How the data were processed

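Uterus RNA of 40 libraries was measured by bulk RNA-seq, from total RNA extracted with a Qiagen kit, per the labels. The values are FPKM per gene as deposited, in a single table. The submitters' processing notes name mm10, while for aligner, counter, annotation and strand setting the answer is "not given in the sources used here". Multiplied by gene length, the values were whole numbers of reads in 100% of cases (tolerance 0.01 reads), so reads could be rebuilt. The deposited values were already scaled by median-of-ratios over the 16247 genes above 0 in every library. All 80 pairs of libraries within groups differed beyond sampling noise (chi-square at least 8.40 times its degrees of freedom).

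The tested genes, with 5 or more libraries at 1 FPKM or above, were taken as log2(FPKM + 1), pseudocount 1, with limma 3.58.1 in R 4.3.3 (with data.table, version 1.17.8), with an intensity trend and all 8 groups in 1 fit (32 residual degrees of freedom), over 12 comparisons, two-sided, with Benjamini-Hochberg adjustment within each. A change on this scale understates that of genes with low values. The fit was tested on simulated data with an equal spread setting in all groups. That does not test the shared estimate of spread where groups differ in spread. The members and the lists were chosen with earlier results of these data known. Named genes were the 10 members, up to 4 called genes of smallest p per list and comparison, the 5 genes most like Csf1r and Retnla, and Csf1, Il34, Cx3cl1, C1qc and Clec10a. A part of these is printed and the rest given as counts, and the values of 2 list genes are not reported here. Sequences are from RefSeq, GRCm38.p6. Alternatives were another pseudocount, no filter, other scalings, fitting only the groups compared, a replicate block, voom on rebuilt reads, an adipocyte covariate, and leaving out each library or the libraries of high oviduct or oestrogen signal. Plots and tables used Python 3.11.15 with matplotlib 3.10.9 and pandas 2.3.3.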

Additional observations from a re-analysis of the deposited data

Results flagged for a closer look

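Of 80 sets of 5 libraries (10 members in 8 groups), 4 held a library far from the other 4 by Dixon's test, which chance alone does for about 1 in 20 sets. Cx3cr1 was at 1.49 FPKM in doxorubicin library 3 at 4 h and at 2.78 to 3.30 in the others. Lyz2 was at 116 FPKM in the same library and at 75.8 to 84.4 in the others. C1qa was at 47.1 FPKM in library 1 of doxorubicin with AMH at 24 h and at 37.5 to 39.6 in the others. C1qb was at 21.4 FPKM in AMH library 4 at 4 h and at 32.9 to 37.0 in the others.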

How the results depend on the processing

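No change of a called member reversed its direction under any setting run. The calls kept their side of the threshold for all 10 members in all 12 comparisons with a pseudocount of 0.1, median-of-ratios scaling and the adipocyte covariate. With the replicate number as a block the counts of members called were again 5, 5, 2 and 2 (doxorubicin and doxorubicin with AMH at 24 h, doxorubicin with AMH and AMH at 4 h), and the block changed no member's call. Whether same-numbered libraries share more than a number is not given in the labels. The r of their deviations was over 0.1 in 1 to 4 of the 5 pairs of a comparison, with 4 between the controls. It ran from -0.25 to 0.14 for doxorubicin and its control at 24 h. For doxorubicin with AMH and its control it ran from 0.05 to 0.25 at 4 h and reached 0.39 at 24 h. These values do not decide whether such libraries are paired. Median-of-ratios scaling tests little, because the deposited values already carry it. The planned edgeR test was not run, as the files hold no counts, and voom on the rebuilt reads, added after seeing the data, lost 1 call (Cd163, doxorubicin at 24 h, limma adjusted p = 0.055).

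Members called fell from 5 to 0 for doxorubicin at 24 h when only the groups compared were fitted and without the high-oestrogen libraries, and to 3 without the high-oviduct ones. Without the high-oviduct libraries Adgre1 and Mgl2 kept their calls, Lyz2 was newly called, and Mrc1, Cd163 and Retnla lost theirs. For doxorubicin with AMH at 24 h they fell from 5 to 1 without the high-oestrogen libraries. For doxorubicin with AMH at 4 h they went from 2 to 4 with only the groups compared, 0 without the high-oviduct and 6 without the high-oestrogen libraries. For AMH at 4 h they went from 2 to 1 with no filter and without the high-oviduct libraries. Leaving out each library gave 2 to 7 members for doxorubicin at 24 h, 4 to 5 and 2 to 4 for doxorubicin with AMH at 24 h and 4 h, 1 to 3 for AMH at 4 h, 0 to 2 between both doxorubicin groups at 24 h and 0 to 0 in the other 7 comparisons. The cause was not tested. The smaller sets hold fewer samples in all. For doxorubicin with AMH at 4 h, though, both groups kept all 5 libraries in the settings that gave 4 and 6 members. There the log2 changes of Mrc1 (-0.58) and Csf1r (-0.64) were the same in both settings, and only the other groups' libraries in the fit differed.

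Counts of all genes called moved likewise. For doxorubicin at 24 h 2984 became 1855 with no filter, 25 with only the groups compared, 1797 without the high-oviduct and 73 without the high-oestrogen libraries. For doxorubicin with AMH at 24 h 5566 became 1032 with only the groups compared and 119 without the high-oestrogen libraries. At 4 h, doxorubicin with AMH went from 64 to 789, 5 and 688 (only the groups compared, without high-oviduct, without high-oestrogen) and 174 with the adipocyte covariate. Doxorubicin at 4 h went from 80 to 48 with no filter and to 11, 32 and 148 in that order, and AMH at 4 h from 3250 to 5874 with only the groups compared. AMH at 24 h went from 75 to 29 with no filter and to 4, 41 and 5 in that order, and the 24 h against the 4 h controls from 1188 to 107, 330 and 477. Between both doxorubicin groups at 24 h the count went from 54 to 35 with a pseudocount of 0.1, 30 with no filter, 0 with only the groups compared and 250 without the high-oestrogen libraries, and at 4 h it was 1 and ranged from 0 to 7. The interaction at 4 h went from 0 to 1241 with only the groups compared, 10 without the high-oestrogen libraries and 3 with the adipocyte covariate. The doxorubicin effect between times went from 2 to between 0 and 8. With 1 library left out at a time the genes called were 934 to 5581, 2901 to 7132 and 9 to 2180 for doxorubicin, doxorubicin with AMH and AMH at 24 h, and 28 to 191, 16 to 63 and 1700 to 3325 at 4 h. They were 483 to 2414 between the controls, 7 to 244 and 1 to 4 between both doxorubicin groups at 24 h and 4 h, 0 to 1 for each interaction and 0 to 8 for the doxorubicin effect between times. Depth limits Retnla most, where 3 reads were 0.189 to 0.341 FPKM.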
